A study of Mus musculus with 6 samples.

Results

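The insulin-like growth factor (IGF) system was read at the transcript level in primary myoblasts, the muscle progenitor cells that grow out of digested muscle. It was taken as 10 genes, which a rule lists by name: the ligands Igf1 and Igf2, the receptors Igf1r and Igf2r, and the binding proteins Igfbp2, Igfbp3, Igfbp4, Igfbp5, Igfbp6 and Igfbp7. These are 10 of the 54532 genes in the count table, and all 10 were among the 14679 genes that passed the filter on low counts. Bulk RNA-seq libraries, 3 labelled WT and 3 labelled eIF5A-KO, were compared. The knockout label stands for the removal of eIF5A, a translation factor that carries the modified amino acid hypusine. The transcript counts did not show that removal, as given below.

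The cells came from hind-limb muscle of 3-week-old mice and were collected in the proliferating state at day 2, in medium with 10% fetal bovine serum and 10 μg/ml FGF, the same for both groups. The knockout animals were Pax7CreERT2/+;eIF5A f/f on a C57BL/6j background, in which tamoxifen activates the recombinase, and the controls were their littermates. The study gives the control genotype both as Pax7CreERT2/+ and as Pax7+/+;eIF5A f/f, so that whether the WT libraries carry the Cre allele was not resolved here. Because Pax7 drives the recombinase, any cell of the culture that does not descend from a Pax7-expressing cell keeps eIF5A. The labels do not say whether the 3 libraries of a group came from separate mice, and p-values then measure the spread between these libraries alone.

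IGF1 and IGF2 are secreted polypeptides that signal through the tyrosine kinase IGF1R, and the cation-independent mannose 6-phosphate receptor IGF2R takes IGF2 up for degradation without a kinase of its own. The binding proteins hold most extracellular IGF, prolong its life and either block or deliver it, and proteases release it again. In muscle the IGFs are known for driving both the proliferation and the differentiation of myoblasts, and Igf2 and Igfbp5 are known to rise as cultured myoblasts begin to differentiate.

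Libraries held from 16281216 to 17734551 reads assigned to genes. Levels are given as CPM, counts relative to library size after scaling with TMM factors, where a gene is compared between libraries. They are given as FPKM, fragments relative to gene length and library size as the authors scaled them, where genes are compared with each other. Eif5a, the targeted gene, showed no lower transcript level under the knockout label. It stood at 1600.4, 985 and 1237 CPM in WT replicates 1 to 3 and at 1363, 1457 and 1058 CPM in the libraries labelled eIF5A-KO. On the log2 scale edgeR estimated a difference of 0.02 with a 95% confidence interval of -0.51 to 0.55 and an adjusted p of 0.993. That estimate fell below 0 without WT replicate 2 (-0.13), without replicate 1 labelled eIF5A-KO (-0.01) and without replicate 2 labelled eIF5A-KO (-0.06), and counts over the whole gene do not show which exons remain. The groups are therefore named by their labels throughout.

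WT replicate 1 stood apart from the other libraries. Mitochondrial transcripts took 5.75% of its counts against 2.11% to 3.50% elsewhere, and the 10 most abundant genes took 8.54% against 5.01% to 6.65%. Levels also moved with transcript length in the WT group. Genes with at least 5 kb of exon sequence had a median deviation from their own mean, on the log2 CPM scale, of -0.11 in WT replicate 1 and 0.18 in WT replicate 2, whereas the medians of genes of at most 2 kb were 0.27 and -0.28. In the other 4 libraries these medians lay between -0.08 and 0.08 for the long genes and between -0.15 and 0.10 for the short ones. Of the members of at least 5 kb, Igf2, Igf1r, Igf2r and Igfbp5 had the order of the long genes over the 3 WT libraries and Igf1 the reverse order. Of those of at most 2 kb, Igfbp6 had the order of the short genes, whereas Igfbp2 and Igfbp7 did not. The part of length in the level of any member was not tested.

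Between the labelled groups, the binding proteins Igfbp5 and Igfbp7 differed most of the 10 members. Igfbp5 and Igfbp7 were higher in all 3 libraries labelled eIF5A-KO than in any WT library, by a factor of 1.99 (95% confidence interval 1.15 to 3.46) and 1.80 (1.26 to 2.56). Neither passed the threshold of an adjusted p under 0.05 in edgeR's quasi-likelihood test over all 14679 genes (adjusted p = 0.576 and 0.400). Over the 17 alternatives the adjusted p ranged from 0.00136 to 0.9998 for Igfbp5 and from 0.0199 to 0.9998 for Igfbp7, and both passed only without the filter on low counts, where 26956 genes were tested. At an unadjusted p under 0.05, 2 of the 10 members were higher and 0 were lower, where 6.76% of all tested genes passed in either direction. The median log2 fold change was 0.10 over the members and -0.01 over all tested genes. Of the members, 7 had a positive and 3 a negative estimate, beside 7097 and 7582 of all tested genes.

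The adjusted threshold itself was passed by 0 of the 10 members and by 0.0204% of all tested genes, 3 in number. The criterion of the study, a fold change over 2 with an unadjusted p under 0.05, was met by 0 of the 10 members and by 1.69% of all tested genes. Igfbp5, with a fold change of 1.99, lay at its limit, and 1 member met the criterion under 9 of the 17 alternatives. The libraries of the groups did not overlap for 2 members, both higher in the libraries labelled eIF5A-KO, where 12.5% of all tested genes did not overlap in either direction and 5.68% were higher without overlap. In bulk samples fewer cells of a type and less RNA per cell cannot be told apart, and this holds for each level given here.

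**Figure D1:**
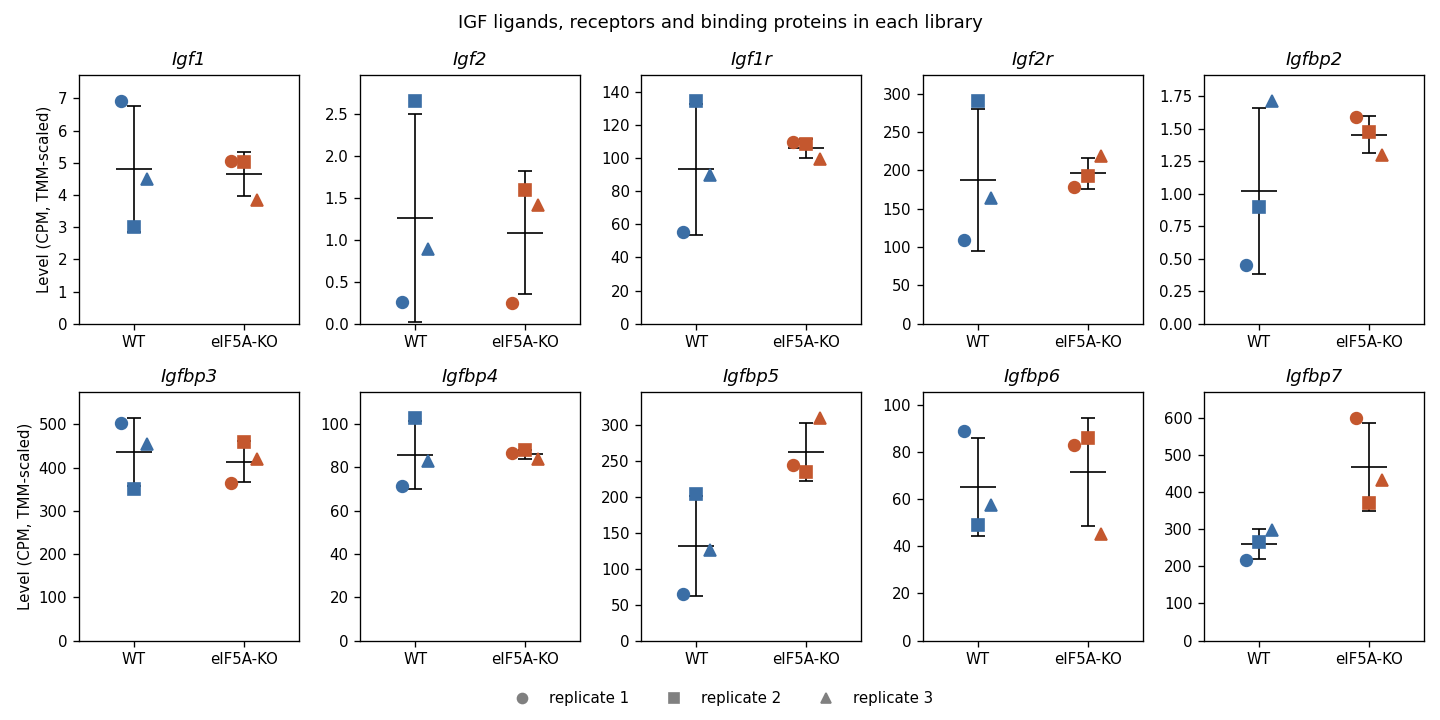
Level of each of the 10 genes in CPM (vertical axes, each from 0) in the 3 WT libraries (blue) and the 3 libraries labelled eIF5A-KO (orange). Points are libraries, with the replicate number as the symbol, and bars show the mean and SD. The groups are apart for Igfbp5 and Igfbp7 and overlap for the other 8 genes.

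Per length (FPKM), the ligands had the lowest means of the members, with libraries of Igf1 overlapping those of Igfbp2. Igf1, the growth factor that acts through IGF1R, lies on the plus strand at chr10:87858265-87937042 (GRCm38) with 8 annotated transcripts. It had between 57 and 107 counts per library. Its level was 6.91, 3.02 and 4.48 CPM in WT replicates 1 to 3 and 5.07, 5.03 and 3.85 CPM in replicates 1 to 3 labelled eIF5A-KO. WT replicates 1 and 2 were the highest and the lowest of the 6 libraries, and the libraries labelled eIF5A-KO lay between them. The mean was 4.80 ± 1.96 CPM in WT (SD, n = 3) and 4.65 ± 0.693 CPM in the libraries labelled eIF5A-KO (SD, n = 3). In edgeR the groups differed by -0.04 on the log2 scale, with a 95% confidence interval of -0.77 to 0.69 and an adjusted p of 0.990. Its sign changed with single libraries left out, to 0.31 without WT replicate 1 and 0.08 without replicate 3 labelled eIF5A-KO.

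Igf2, the imprinted ligand that myoblasts make as they differentiate, lies on the minus strand at chr7:142650766-142666816 with 9 annotated transcripts. It was counted 4, 50 and 15 times in WT replicates 1 to 3 and 4, 27 and 25 times in replicates 1 to 3 labelled eIF5A-KO. A count of 4 has an exact 95% Poisson interval of 1.09 to 10.2 and a count of 50 of 37.1 to 65.9, intervals that cover counting error only. The intervals of the lowest and the highest WT library thus do not overlap. The levels were 0.258, 2.65 and 0.885 CPM in WT and 0.244, 1.60 and 1.42 CPM in the libraries labelled eIF5A-KO, a 10.3-fold range in WT alone. The replicates 1 of both groups were the lowest libraries and WT replicate 2 the highest. Its estimated log2 fold change was -0.22 with a 95% confidence interval of -1.83 to 1.40 (adjusted p = 0.978 in edgeR), wider than that of any other member, and it was 0.80 without WT replicate 2 and 0.22 without replicate 1 labelled eIF5A-KO. Myog, a transcription factor that marks differentiating myocytes, was also highest in WT replicate 2, at 76.2 CPM against 14.4 and 32.2 CPM in WT replicates 1 and 3. In the libraries labelled eIF5A-KO it was 8.92, 5.09 and 2.10 CPM, lower than in any WT library (log2 fold change -2.91, unadjusted p = 0.00119, adjusted p = 0.362 in edgeR), and its part in the Igf2 levels was not tested.

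The genes whose pattern over the 6 libraries was most like that of a ligand were found by Pearson correlation of log2 CPM among 9694 genes with a mean of at least 10 CPM. For Igf1 they were Emc6, 2010204K13Rik and Mrps23, with r of 0.995, 0.995 and 0.995. For Igf2 they were Zfp869 (r = 0.989), Ppfia1 (r = 0.986) and Srpk2 (r = 0.975). These values describe 6 libraries, in which many levels moved with gene length as given above, and they were picked as the highest of 9694.

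The receptors were measured with 855 to 5472 counts per library and varied far more in WT than in the libraries labelled eIF5A-KO. Igf1r, the signalling receptor, lies on the plus strand at chr7:67952827-68233668 where up to 21 exons are joined in a transcript. Its level was 55.2, 134 and 90.0 CPM in WT and 109.7, 109 and 99.3 CPM in the libraries labelled eIF5A-KO. The latter 3 libraries all lay within the WT range. The coefficient of variation was 42.5% in WT and 5.38% in the libraries labelled eIF5A-KO. The edgeR estimate was 0.18 on the log2 scale, with a 95% confidence interval of -0.45 to 0.82 and an adjusted p of 0.953.

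Igf2r, the receptor that clears IGF2, lies on the minus strand at chr17:12682406-12769664 where up to 48 exons are joined in a transcript. It stood at 109, 289.8 and 163 CPM in WT and at 178, 192 and 218 CPM in the libraries labelled eIF5A-KO. As for Igf1r, WT replicate 1 was the lowest and WT replicate 2 the highest of the 6 libraries. For Igf2r edgeR gave 0.06 on the log2 scale, with a 95% confidence interval of -0.64 to 0.77 and an adjusted p of 0.986. Both receptor estimates turned with the WT libraries: without WT replicate 1 they were -0.07 for Igf1r and -0.20 for Igf2r, and without WT replicate 2 they were 0.54 (unadjusted p = 0.0380 in edgeR) and 0.53 (unadjusted p = 0.0374 in edgeR). For Igf2r it was also -0.02 without WT replicate 3 and -0.02 without replicate 3 labelled eIF5A-KO. Igf1r and Igf2r have 16791 and 9308 bases of exon sequence.

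Per length, Igf2r exceeded Igf1r in each library. The ratio of their FPKM values was 3.57, 3.90 and 3.27 in WT and 2.92, 3.19 and 3.97 in the libraries labelled eIF5A-KO, so that the groups overlapped. The ratio thus varied less over the WT libraries than the level of either receptor.

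Among the binding proteins, Igfbp5 and Igfbp7 were those whose groups did not overlap. Their promoter sequences are shown with that of Igfbp3, an abundant binding protein whose groups overlapped, because all 3 are read beside each other below. Each is a RefSeq window of 300 bases on GRCm38.p6, 250 before and 50 after the annotated start, written along the transcribed strand, with the letters CANNTG in capitals. CANNTG is the E-box, the short motif that myogenic and other basic helix-loop-helix factors can bind, and both strands were searched.
Igfbp5, minus strand, chr1:72874816-72875115: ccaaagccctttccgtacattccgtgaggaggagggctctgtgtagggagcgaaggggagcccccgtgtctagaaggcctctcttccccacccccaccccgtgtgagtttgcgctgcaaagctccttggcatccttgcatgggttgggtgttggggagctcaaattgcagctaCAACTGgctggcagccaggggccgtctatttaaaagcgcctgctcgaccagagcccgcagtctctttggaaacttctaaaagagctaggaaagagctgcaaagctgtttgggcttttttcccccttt
Igfbp7, minus strand, chr5:77407996-77408295: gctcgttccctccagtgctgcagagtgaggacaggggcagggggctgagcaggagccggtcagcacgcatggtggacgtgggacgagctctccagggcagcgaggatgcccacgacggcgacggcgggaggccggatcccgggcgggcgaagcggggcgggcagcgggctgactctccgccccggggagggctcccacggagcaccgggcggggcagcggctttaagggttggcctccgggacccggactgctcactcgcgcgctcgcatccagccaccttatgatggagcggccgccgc
Igfbp3, minus strand, chr11:7213874-7214173: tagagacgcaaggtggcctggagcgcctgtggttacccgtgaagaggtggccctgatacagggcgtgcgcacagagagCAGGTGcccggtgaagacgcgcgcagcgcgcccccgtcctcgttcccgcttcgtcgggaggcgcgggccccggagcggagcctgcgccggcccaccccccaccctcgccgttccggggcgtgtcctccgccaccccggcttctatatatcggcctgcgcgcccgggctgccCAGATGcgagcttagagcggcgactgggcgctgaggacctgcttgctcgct
The Igfbp5 window held 1 match, CAACTG, beginning at position -77 from the start, and 56.3% of its bases were G or C. The Igfbp7 window held 0 matches to CANNTG and 4 to GGGCGG, the core of the GC box, at 73.3% G or C. Igfbp3 had CAGGTG at -172 and CAGATG at -1, at 71.7% G or C. Across the 14 windows of the 10 members, 10 held CANNTG, against 72.3% of 32851 mouse promoter windows of the same length, and 6 held GGGCGG on either strand, against 35.7%. TATAAA, searched on both strands, was in the windows of Igfbp4 and Igfbp6 and in 13.6% of all windows. The windows of Igfbp5 and Igfbp7 thus shared none of these motifs, and a match describes letters and not a bound site.

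Igfbp5, a binding protein held in the extracellular matrix and prominent in differentiating muscle cells, has transcripts of up to 6 exons at chr1:72857932-72874884. It had between 998 and 5462 counts per library. Its level was 64.4, 204 and 126 CPM in WT replicates 1 to 3 and 244, 235 and 309 CPM in replicates 1 to 3 labelled eIF5A-KO. The lowest library labelled eIF5A-KO lay above the highest WT library, and WT replicate 1 was the lowest of all. The mean was 132 ± 70.1 CPM in WT (SD, n = 3) and 263 ± 40.6 CPM in the libraries labelled eIF5A-KO (SD, n = 3). This is a log2 fold change of 1.00 ± 0.35 (standard error), with a 95% confidence interval of 0.20 to 1.79 and an unadjusted p of 0.0196 in edgeR.

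The size of the Igfbp5 difference moved with the WT libraries. Without WT replicate 1 the log2 fold change was 0.68 (unadjusted p = 0.0120 in edgeR), and without WT replicate 2 it was 1.46 (unadjusted p = 0.000531 in edgeR). The unadjusted p was above 0.05 without WT replicate 3 (0.0536) and without replicate 3 labelled eIF5A-KO (0.0684). Igfbp5 was higher in the libraries labelled eIF5A-KO under all 17 alternatives, and with the 14679 genes ordered by p it stood at rank 497. Its gene ends 5457 bases from that of Igfbp2, tail to tail on chromosome 1, with 0 annotated genes between them.

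Igfbp2, a binding protein abundant in fetal tissues, lies on the plus strand at chr1:72824503-72852474. It was counted only 7, 17 and 29 times in WT and 26, 25 and 23 times in the libraries labelled eIF5A-KO, or 0.452, 0.900 and 1.71 CPM and 1.59, 1.48 and 1.30 CPM. WT replicate 3 was the highest library and the other WT libraries the lowest, so that the groups overlapped. The estimate on the log2 scale was 0.46, with a 95% confidence interval of -0.51 to 1.43 and an adjusted p of 0.917 in edgeR. Left-out libraries moved it from 0.16 without WT replicate 1 to 0.97 without WT replicate 3 (unadjusted p = 0.0559 in edgeR), and it was 0.38 without WT replicate 2. The interval over all libraries holds both 0 and the estimate of its neighbour Igfbp5, so that the counts of Igfbp2 do not show whether the pair differed alike.

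Igfbp7, also called angiomodulin or Mac25, binds IGF weakly, binds insulin, and is prominent in the walls of blood vessels. It lies on the minus strand at chr5:77349240-77408041, with transcripts of up to 6 exons, and had between 3349 and 9817 counts per library. Its level was 216, 267 and 298 CPM in WT replicates 1 to 3 and 599.8, 371 and 434 CPM in replicates 1 to 3 labelled eIF5A-KO. All 3 libraries labelled eIF5A-KO exceeded all 3 WT libraries, and replicate 1 was the highest. The mean was 260 ± 41.2 CPM in WT (SD, n = 3) and 468 ± 118 CPM in the libraries labelled eIF5A-KO (SD, n = 3). This is a log2 fold change of 0.85 ± 0.23 (standard error), with a 95% confidence interval of 0.34 to 1.35, an unadjusted p of 0.00422 in edgeR and a rank of 155 among all tested genes.

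The Igfbp7 estimate moved less with single libraries than that of Igfbp5. It ranged from 0.64 without replicate 1 labelled eIF5A-KO to 1.00 when replicate 2 of the same label was left out, and was 0.74 without WT replicate 1 and 0.87 without WT replicate 2. In all 17 alternatives its unadjusted p was under 0.05. Polr2b, a subunit gene of RNA polymerase II, overlaps Igfbp7 on the opposite strand and had at most 2233 counts in a library. Whether the counting used strand is not given in the sources used here, so that reads from the shared bases cannot be assigned with certainty. Polr2b stood at 112 ± 5.85 CPM in WT and 107 ± 8.93 CPM in the libraries labelled eIF5A-KO (SD, n = 3 each), and its estimate on the log2 scale was -0.07 (95% confidence interval -0.42 to 0.28 in edgeR).

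**Figure D2:**
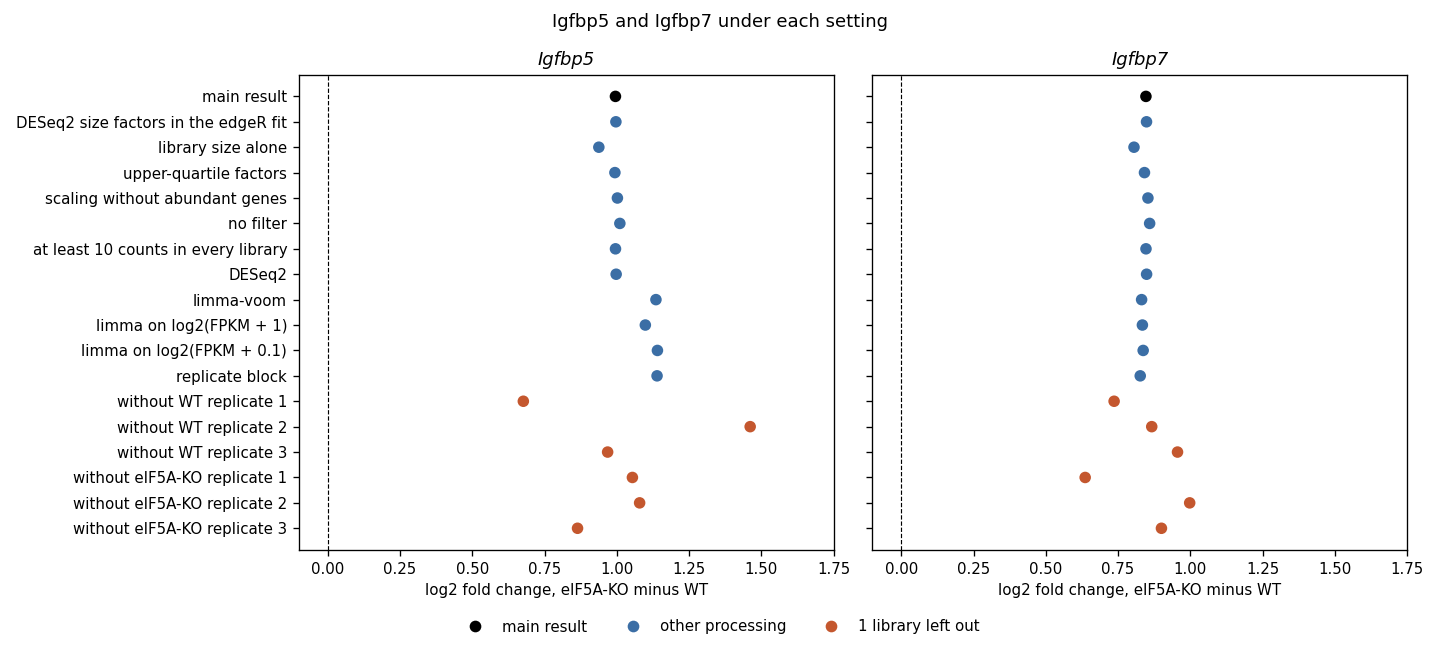
Log2 fold change (horizontal axis, libraries labelled eIF5A-KO minus WT) of Igfbp5 and Igfbp7 in the main result (black), under other processing (blue) and with 1 library left out (orange). All points lie above 0, and those of Igfbp5 spread from 0.68 to 1.46 with the choice of WT libraries.

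Igfbp3, Igfbp4 and Igfbp6 overlapped between the groups. Igfbp3, the main carrier of IGF in blood and an inducible secreted protein of mesenchymal cells, lies on the minus strand at chr11:7206086-7213923, and had 5971 to 7809 counts per library. Its level was 504, 351 and 454 CPM in WT and 365, 458 and 419 CPM in the libraries labelled eIF5A-KO. WT libraries were both the highest and the lowest. The log2 estimate was -0.07 with a 95% confidence interval of -0.52 to 0.37 and an adjusted p of 0.976 in edgeR. It was 0.05 without WT replicate 1 and 0.02 without replicate 1 labelled eIF5A-KO. The interval excludes a difference of the size estimated for Igfbp5 or Igfbp7 in the same fit.

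Igfbp4, a binding protein that inhibits IGF action until the protease PAPP-A cleaves it, lies on the plus strand at chr11:99041244-99054392. It stood at 71.2, 103 and 82.9 CPM in WT and at 86.3, 87.7 and 83.7 CPM in the libraries labelled eIF5A-KO. The coefficient of variation in the latter was 2.37%, the lowest of the members in either group, and all 3 libraries lay inside the WT range. The log2 estimate was 0.01 with a 95% confidence interval of -0.40 to 0.41 and an adjusted p of 0.996 in edgeR, and it was negative with scaling by library size alone (-0.04) and without WT replicate 1 (-0.10), WT replicate 3 (-0.01) or replicate 2 labelled eIF5A-KO (-0.00030).

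Igfbp6, which binds IGF2 in preference to IGF1, lies on the plus strand at chr15:102144362-102149511. Its level was 88.9, 49.2 and 57.4 CPM in WT and 83.3, 86.3 and 45.3 CPM in the libraries labelled eIF5A-KO. A WT library was the highest and a library labelled eIF5A-KO the lowest. The log2 estimate was 0.14 with a 95% confidence interval of -0.53 to 0.80 and an adjusted p of 0.973 in edgeR, and it was -0.03 without WT replicate 2 and -0.01 without replicate 2 labelled eIF5A-KO. With 1112 bases of exon sequence it is the shortest member.

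**Figure D3:**
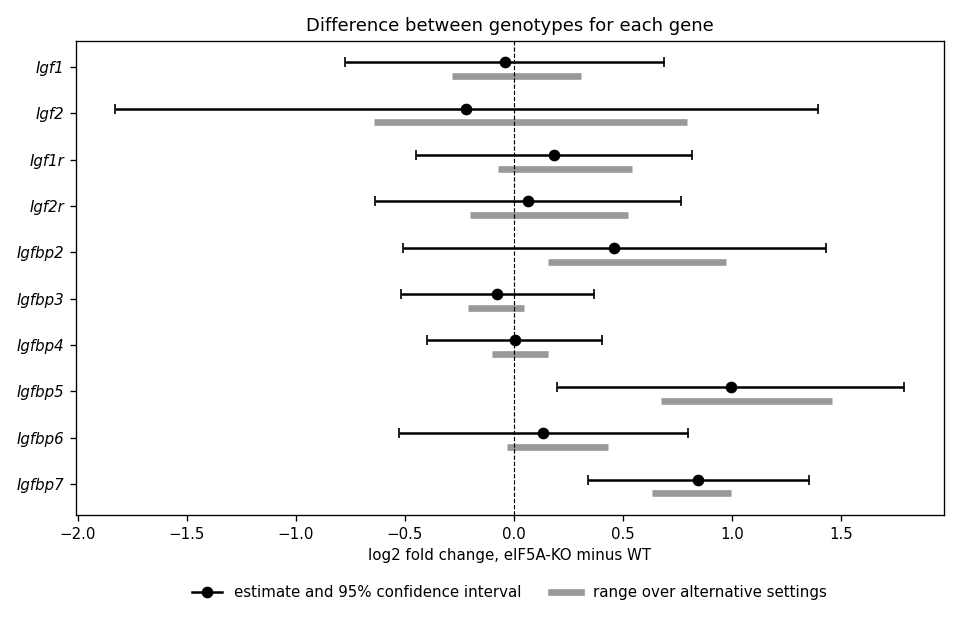
Log2 fold change of each member (horizontal axis, libraries labelled eIF5A-KO minus WT), as the edgeR estimate with its 95% confidence interval (black) and the range over the alternative settings (grey). The intervals of Igfbp5 and Igfbp7 lie above 0 and those of the other 8 genes include 0.

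Compared per length, the binding proteins dominated and the ligands came last. The order of the mean FPKM over the 6 libraries was Igfbp7 (299), Igfbp3 (135), Igfbp6 (61.0), Igfbp5 (32.6), Igf2r (20.5), Igfbp4 (19.3), Igf1r (5.88), Igfbp2 (0.666), Igf1 (0.473) and Igf2 (0.204). The libraries of Igfbp7 (176 to 492 FPKM) did not overlap with those of Igfbp3 (111 to 159 FPKM), nor did those of Igfbp3 with those of Igfbp6 (40.6 to 78.8 FPKM). Igfbp6 overlapped with Igfbp5, Igfbp5 with Igf2r and Igf2r with Igfbp4, while the libraries of Igfbp6 all lay above those of Igf2r (11.6 to 30.8 FPKM) and Igfbp4 (15.9 to 23.0 FPKM). Igf1r stood below Igfbp4 and above Igfbp2 without overlap, and was 8.83 times as abundant as the latter. Igfbp2, Igf1 and Igf2 overlapped each with its neighbour.

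The summed level of the 6 binding protein genes was higher in the libraries labelled eIF5A-KO through Igfbp7. It was 440.4, 431 and 480.5 FPKM in WT and 743, 588 and 603 FPKM in the libraries labelled eIF5A-KO, and the groups did not overlap. Without Igfbp7 the sum was 264, 212 and 236 FPKM in WT and 251, 283 and 245 FPKM in the libraries labelled eIF5A-KO, and the groups overlapped. Igfbp7 made up 40.0%, 50.8% and 50.9% of this sum in WT and 66.3%, 51.9% and 59.4% in the libraries labelled eIF5A-KO. Igfbp3 made up 36.0%, 25.8% and 30.0% and 15.6%, 24.8% and 22.2%, respectively, so that its share was lower without overlap while its own level overlapped. The same held for Igfbp4, at 3.61%, 5.34% and 3.88% in WT and 2.61%, 3.37% and 3.13% in the libraries labelled eIF5A-KO. The FPKM ratio of Igfbp7 to Igfbp3 was 1.11, 1.97 and 1.70 in WT and 4.26, 2.09 and 2.68 in the libraries labelled eIF5A-KO, with replicate 2 labelled eIF5A-KO close to WT replicate 2. The share of Igfbp5 was 2.40% to 7.82% in WT and 5.43% to 8.51% in the libraries labelled eIF5A-KO and overlapped. Shares of a sum depend on each other and on the difference in Igfbp7 already given, and no test was run on them.

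**Figure D4:**
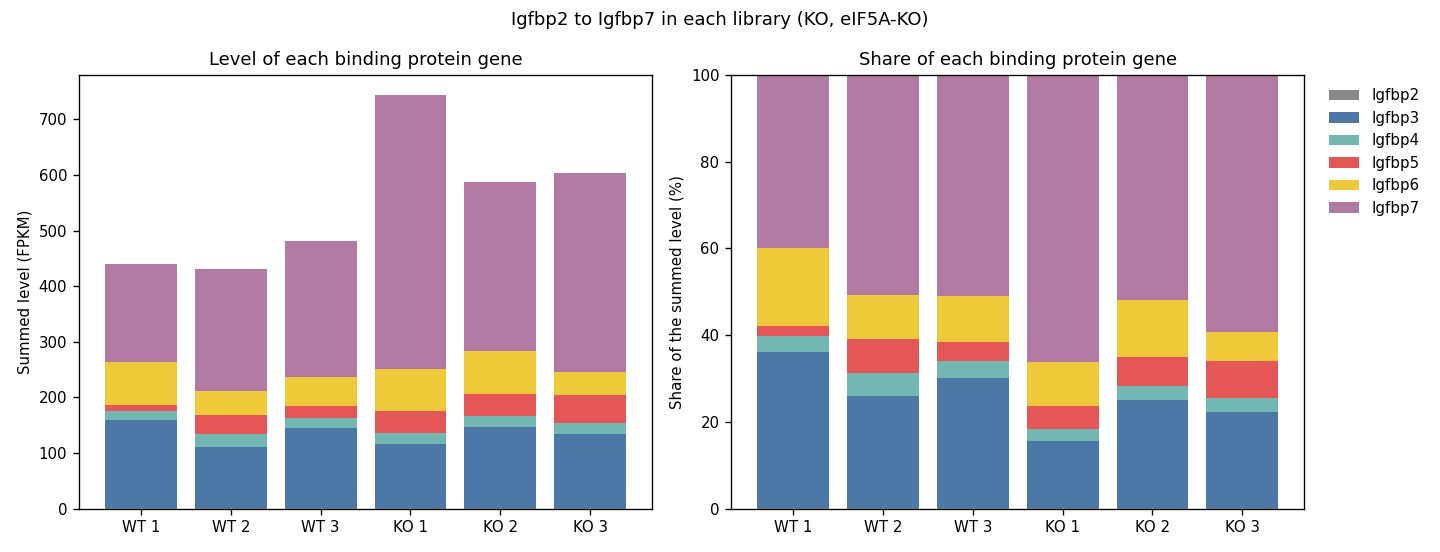
Summed FPKM of Igfbp2 to Igfbp7 in each library (left) and the share of each gene in that sum in percent (right), with WT and eIF5A-KO (KO) libraries numbered by replicate. Igfbp7 and Igfbp3 make up most of each bar, and the bars labelled KO are taller, from 588 to 743 FPKM against 431 to 480.5 FPKM.

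The other genes of the IGF system were read from 3 lists, beside the shares of all tested genes at an unadjusted p under 0.05 (6.76%), without overlap (12.5%) and higher without overlap (5.68%). Of 12 other secreted or surface genes, 6 were tested, 0 passed the adjusted threshold, and 1 was higher and 0 lower at an unadjusted p under 0.05. Their median log2 fold change was 0.21, with 4 positive and 2 negative estimates. Stc1 encodes stanniocalcin-1, an inhibitor of the proteases that cleave IGFBP4. It stood at 7.36, 9.22 and 8.38 CPM in WT and 9.96, 12.4 and 15.7 CPM in the libraries labelled eIF5A-KO, higher without overlap (log2 fold change 0.60, unadjusted p = 0.0264, adjusted p = 0.640 in edgeR). Htra1, a secreted serine protease that can cleave IGFBP5, was also higher without overlap, at 182, 149.9 and 169.8 CPM against 216, 198 and 188 CPM (log2 fold change 0.26, adjusted p = 0.863 in edgeR).

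Igfbp1, Ins1 and Ins2 had 0 counts in every library. A count of 0 allows up to 3 counts, or between 0.159 and 0.194 CPM depending on the library. Igfbp1 lies 3539 bases from Igfbp3 on chromosome 11, so that of this pair of neighbours the IGF carrier Igfbp3 was among the most abundant members and the other was not detected at this depth. Insr, the insulin receptor, which can form hybrids with IGF1R, had an estimate of 0.20 on the log2 scale (adjusted p = 0.952 in edgeR).

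Signalling genes inside the cell were tested for 29 of 30, and 0 passed the adjusted threshold and 0 an unadjusted p under 0.05, with 17 positive and 12 negative estimates and a median log2 fold change of 0.06. The smallest p values belonged to Pdpk1, the kinase that activates AKT, and Irs2, an adaptor of the receptor. Pdpk1 was at 61.7, 69.8 and 37.7 CPM in WT and 33.5, 41.8 and 46.4 CPM in the libraries labelled eIF5A-KO, overlapping (log2 fold change -0.47, unadjusted p = 0.0849, adjusted p = 0.809 in edgeR). Irs2 was at 25.2, 65.4 and 39.8 CPM and 64.1, 55.3 and 54.3 CPM, also overlapping (log2 fold change 0.41, adjusted p = 0.888 in edgeR). Neither the receptors nor their signalling chain thus showed a difference that passed a test over the 6 libraries.

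Of 10 genes of the Igf2 and Igf2r loci or of Igf2 mRNA binding, 7 were tested, with 0 past the adjusted threshold, 1 lower and 0 higher at an unadjusted p under 0.05, and a median log2 fold change of 0.05. H19, the imprinted noncoding RNA that shares enhancers with Igf2, lies 72622 bases from it on chromosome 7. It was at 374, 751 and 604 CPM in WT and 441, 248 and 130.4 CPM in the libraries labelled eIF5A-KO, with replicate 1 labelled eIF5A-KO above WT replicate 1 (log2 fold change -1.08, unadjusted p = 0.0275, adjusted p = 0.644 in edgeR). H19 was highest in WT replicate 2, as Igf2 was, but lowest in replicate 3 labelled eIF5A-KO, where Igf2 was not. Hmga2, which raises Igf2bp2 transcription in myoblasts, was at 456, 396 and 477 CPM and 562, 521 and 517 CPM, higher without overlap (log2 fold change 0.27, adjusted p = 0.863 in edgeR).

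Antisense RNAs of the members were few. Igf1os and Igf2os had at most 3 and 13 counts in a library, and Airn, the antisense RNA of Igf2r, at most 114 against at least 1693 for Igf2r.

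Markers of the cell types that unsorted muscle cultures can hold moved with Igfbp5 and Igfbp7 in part. Myoblasts were present by their defining gene Pax7, at 12.9, 51.6 and 25.1 CPM in WT and 13.0, 8.28 and 10.6 CPM in the libraries labelled eIF5A-KO (estimated log2 fold change -1.49, adjusted p = 0.484 in edgeR). Markers of vessels were present as well. The 8 endothelial markers summed to 1252 to 2546 CPM in WT and 2178 to 3218 CPM in the libraries labelled eIF5A-KO, with 8 of 8 estimates positive and a median log2 fold change of 0.45. The lowest sum was in WT replicate 1, where Igfbp5 and Igfbp7 were also lowest. That library also stood apart in mitochondrial transcripts and in the levels of long and short genes, as given above. Within WT the endothelial sum was highest in replicate 2, as Igfbp5 was, whereas Igfbp7 was highest in replicate 3. The 8 mural cell markers summed to 263 to 534 CPM and 449 to 622 CPM, with 8 of 8 positive and a median of 0.44. Among the libraries labelled eIF5A-KO, replicate 3 had the highest endothelial and mural sums and the highest Igfbp5, while Igfbp7 was highest in replicate 1. Myh11, a smooth muscle myosin and the only marker past the adjusted threshold, was at 10.5, 11.0 and 10.5 CPM in WT and 29.2, 28.3 and 34.2 CPM in the libraries labelled eIF5A-KO (log2 fold change 1.51, adjusted p = 0.0486 in edgeR). Myh11 was called under 6 and not called under 11 of the 17 alternatives, with adjusted p up to 0.315 and a positive estimate in each.

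Schwann cell markers, 4 in number, summed to 104 to 163 CPM in WT and 175 to 211 CPM in the libraries labelled eIF5A-KO without overlap, with 4 of 4 positive and a median log2 fold change of 0.37. Differentiating myocyte markers summed to 299.5 to 572 CPM and 216 to 321 CPM, with 0 of 8 tested genes positive, a median log2 fold change of -0.85 and Tnnc2 at 0 counts in every library. Satellite cell and myoblast markers summed to 1229 to 2158 CPM and 945 to 1819.9 CPM, with 2 of 8 genes positive and a median log2 fold change of -0.33. Chrna1, the muscle acetylcholine receptor subunit, was lower without overlap, at 85.2, 224 and 148 CPM in WT and 74.8, 43.7 and 29.8 CPM in the libraries labelled eIF5A-KO (log2 fold change -1.62, unadjusted p = 0.00262, adjusted p = 0.396 in edgeR). The summed fibroblast markers overlapped, at 2934 to 3941 CPM and 3023 to 3620.1 CPM, with 4 of 10 genes positive and a median log2 fold change of -0.12. Within that list Col1a1, a fibrillar collagen, was higher without overlap, at 110.2, 189.9 and 130.1 CPM in WT and 204, 249 and 255 CPM in the libraries labelled eIF5A-KO (log2 fold change 0.72, unadjusted p = 0.0106, adjusted p = 0.504 in edgeR). Cd34 did not overlap either, at 423 to 467 CPM and 472 to 566 CPM (log2 fold change 0.22, adjusted p = 0.898 in edgeR). The defining gene Pdgfra was at 387, 406 and 350.0 CPM and 302, 432 and 332 CPM (log2 fold change -0.10, adjusted p = 0.966 in edgeR). Leukocyte markers summed to 56.2 to 132 CPM and 54.8 to 163 CPM, with 7 of 9 tested genes positive and a median log2 fold change of 0.32. Of these, the defining gene Ptprc was at 0.194 to 2.54 CPM in WT and 0.226 to 0.917 CPM in the libraries labelled eIF5A-KO, with a negative estimate of -0.72, and Cd68 had an estimate of 0.83 (unadjusted p = 0.0338, adjusted p = 0.675 in edgeR). Tendon markers summed to 23.4 to 32.4 CPM and 16.7 to 23.7 CPM, with 1 of 4 positive and a median log2 fold change of -0.27. The part of these cell types in the levels of Igfbp5, Igfbp7 or any other member was not tested.

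**Figure D5:**
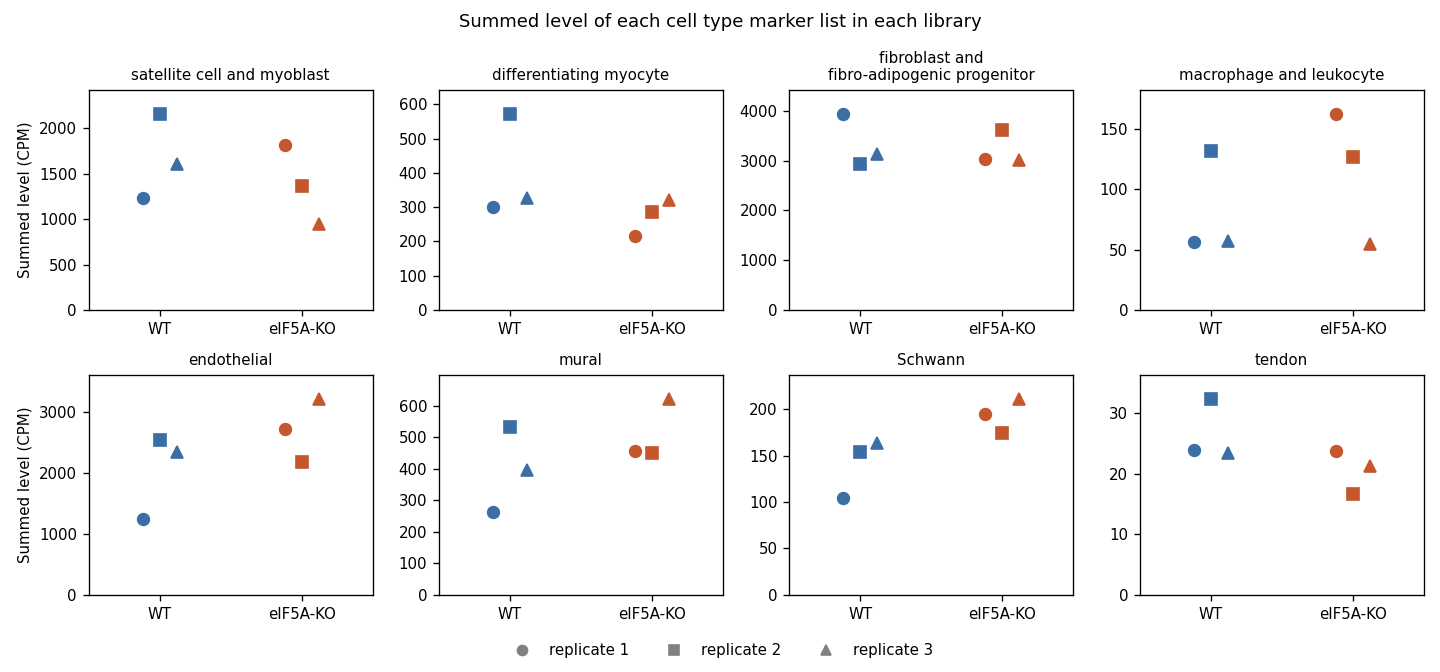
Summed CPM of each cell type marker list (vertical axes, each from 0) in the WT libraries (blue) and the libraries labelled eIF5A-KO (orange), with the replicate number as the symbol. The Schwann sums do not overlap, the endothelial and mural sums overlap with their lowest value in WT replicate 1, and the fibroblast sums overlap.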

How the data were processed

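Total RNA of cultured primary myoblasts was extracted with TRIzol and made into libraries with an NEBNext Ultra kit, and the authors mapped the reads to mm10 with HISAT. The authors deposited raw counts of reads per gene and a table of FPKM. The version of HISAT, the annotation, the counting rules and the use of strand are not given in the sources used here. The FPKM denominators of the deposited table were checked against the counts: gene length was that of the files, and the scale of each library was constant to within rounding (largest relative deviation 5.1e-15).

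Groups came from the genotype labels. Counts were analysed in R 4.3.3 with edgeR 4.0.16 (filterByExpr, TMM factors, quasi-likelihood F test, prior count 2, Benjamini-Hochberg adjustment over 14679 genes, no covariate). The common biological coefficient of variation was 0.239. An adjusted p under 0.05 was the threshold. Every test was two-sided, and the edgeR fit was tested on simulated data. The members are fixed by name and no measured value enters their rule, but members, gene lists and tests were chosen with earlier results of these data known. From the pathway lists the 2 genes with the smallest p were named, from the marker lists those past the adjusted threshold and Myog, Pax7, Pdgfra and Ptprc, and for each ligand the 3 genes with the highest correlation. Insr, Polr2b, Tnnc2, Col1a1, Cd34, Cd68, Chrna1, Igfbp1, the insulin genes and the antisense RNAs were named after their values were seen. Coordinates of the 10 members were the same in the files and in GENCODE vM21 (GRCm38), and promoter windows from RefSeq (GRCm38.p6) matched all 10 members. No protein sequences were used here. Alternatives were other scaling factors, other filters, DESeq2 1.42.0, limma 3.58.1 on voom weights or on log2(FPKM + 1) or log2(FPKM + 0.1), a replicate block and leaving out each library. Reads carry no molecular identifiers, so that intervals on single counts cover counting error only.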

Additional observations from a re-analysis of the deposited data

How the results depend on the processing

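Igfbp5 and Igfbp7 had a positive log2 fold change in the libraries labelled eIF5A-KO under all 17 alternatives, and their adjusted p passed the threshold under 1 of them, the fit without the filter on low counts (1.01 for Igfbp5 and 0.86 for Igfbp7), which tested 26956 genes. That fit called 65 genes higher and 184 lower, with 2 members among them, and DESeq2 called 19 and 73 with 0 members. The main result was 1 higher and 2 lower, and it was 0 and 0 (unadjusted p under 0.05 for 992, 967, 907, 961, 980 and 980 genes) under DESeq2's size factors in edgeR, library size alone, at least 10 counts in every library, limma-voom, and limma on log2(FPKM + 1) and on log2(FPKM + 0.1). With single libraries left out the counts ranged from 0 to 8 higher and from 0 to 48 lower, and 1 to 4 members had an unadjusted p under 0.05, where 3.88% to 10.2% of all tested genes did (4 members and 8.82% without WT replicate 2). The criterion of the study was met by 1 member, Igfbp5, without abundant genes in the scaling, without the filter, with limma-voom, with both limma fits on FPKM and with the block, where 0.402% to 2.37% of all tested genes met it. With single libraries left out it was met by 0 to 1 members and by 1.87% to 2.99% of all tested genes. The cause of these differences between tools was not tested.

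The sign of members near 0 turned with some settings. Igf1 was 0.041 with limma-voom, 0.015 with limma on log2(FPKM + 0.1) and 0.013 with the replicate block, and Igfbp4 was -0.036 with library size alone. With single libraries left out, the estimate ranged from -0.28 to 0.31 for Igf1, -0.64 to 0.80 for Igf2, -0.073 to 0.54 for Igf1r, -0.20 to 0.53 for Igf2r, 0.16 to 0.97 for Igfbp2, -0.21 to 0.049 for Igfbp3, -0.10 to 0.16 for Igfbp4 and -0.029 to 0.43 for Igfbp6, and from -0.13 to 0.23 for Eif5a. Igfbp2 kept its sign. The cause was not tested. Igf2 and Igfbp2 had no value under the filter of at least 10 counts in every library, which they did not pass. Shares of the summed binding protein level were the same from scaled counts per kilobase, since scaling cancels within a library.

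Deviations from the group means of same-numbered libraries correlated at 0.09, -0.20 and 0.11. Those of libraries with unlike numbers correlated at -0.29 to 0.31. With 3 libraries in a group these values cannot decide whether same-numbered libraries share a litter or a batch, which the labels do not state. With the replicate number as a block, 24 genes passed the adjusted threshold, 7 higher and 17 lower, in place of 3, with 0 members among them, at 1.14 for Igfbp5 (adjusted p = 0.211 in edgeR) and 0.83 for Igfbp7 (adjusted p = 0.377 in edgeR). Igf2 and Igfbp2 had the lowest counts of the members, between 4 and 50 and between 7 and 29 per library. The spread of Igf2 over the WT libraries exceeded counting error, as given above.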
